A study of Ambystoma mexicanum with 7 samples.

Results

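The early embryo miRNAs miR-302, miR-367, miR-427 and miR-430 were followed on 2 microarray platforms in regenerating axolotl hindlimbs. A probe was taken where it carried a vertebrate entry named exactly miR-302, miR-302a, miR-302b, miR-302c, miR-302d, miR-367, miR-427, miR-430a, miR-430b or miR-430c, and these 10 of 1628 vertebrate names gave 17 of 2021 named Exiqon probes and 22 of 1974 LC Sciences reporters. The blastema, the bud of regenerating cells, was taken 17 days after amputation from 3 white axolotls (animals 368, 369 and 378), and the stump tissue had been cut from the hindlimbs of the same animals at amputation (day 0). Stump pieces held skin, bone, muscle and nerve, the labels name no transgene and no drug, and each animal gave 1 blastema and 1 stump sample on each platform. The Exiqon arrays carried the sample in the dye Hy3 and a common reference pool in the dye Hy5, and each LC Sciences array carried both samples of an animal in different dyes, the Cy3 dye marking the blastema of animal 368 and the stumps of the other animals. The mix of cells in a stump piece and in a blastema was not sorted, and the number of arrays limits the precision of every value.

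A miRNA pairs with its target mRNAs mainly through its seed, bases 2 to 8 counted from the 5′ end. The cluster of miR-302 and miR-367 is known from pluripotent stem cells and early embryos of mammals and birds, and miR-427 in Xenopus and miR-430 in zebrafish clear maternal mRNAs when the embryo turns on its own genome. miR-302, miR-427 and miR-430 share a seed, which differs by a shift of 1 base from that of the miR-17 group, while miR-367 shares its seed with miR-25, miR-92 and miR-363, so that each embryonic family has relatives that are widely used in somatic tissues. The question was whether the embryonic names gave signal in the blastema or in the stump, and whether the groups differed.

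The sequences below are the mature targets of LC Sciences reporters as deposited, shown because the seed decides which somatic miRNAs a member resembles; the seed is in capitals. The first 8 are members and the last 3 are somatic miRNAs of the same or shifted seed.
xtr-miR-302: uAAGUGCUccaauguuuuagugg
hsa-miR-302a: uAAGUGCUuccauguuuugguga
xla-miR-427: aAAGUGCUuucuguuuugggcg
xtr-miR-427: gAAAGUGCuuucuguuuugggcg
dre-miR-430a: uAAGUGCUauuuguugggguag
dre-miR-430b: aAAGUGCUaucaaguugggguag
dre-miR-430c: uAAGUGCUucucuuugggguag
xtr-miR-367: aAUUGCACuguagcaaugguga
hsa-miR-17: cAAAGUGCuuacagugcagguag
xtr-miR-93a: aAAGUGCUguucgugcagguag
hsa-miR-25: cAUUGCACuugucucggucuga

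Of the 22 member reporters, 16 had the seed AAGUGCU, 3 reporters of miR-367 had AUUGCAC, and the remaining 3 were shifted by a base. The target of xtr-miR-427 equalled that of xla-miR-427 with 1 added base at the 5′ end, which changed its seed to AAAGUGC, the seed of miR-17. The target of mdo-miR-367 stood in the same relation to that of hsa-miR-367. The 22 reporters had 20 distinct targets, since the chicken and human forms of miR-302b were identical, as were those of miR-302c. Probe sequences of the Exiqon arrays were not used here.

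None of the 22 member reporters reached a signal of 32 in any LC Sciences sample. Their signals lay between 3 and 27, whereas 25.3% of all 1974 reporters read 32 or more in every blastema or in every stump (23.7% in all 3 blastemas and 24% in all 3 stumps). Signals were normalized by the company on a linear scale without a stated unit, and a signal of 32 was taken as the limit of detection. In single samples 489 to 576 reporters reached 32, and the median over all reporters was 13 to 17. The member median was 9, 11 and 11 in the blastemas of animals 368, 369 and 378, and 10, 11 and 13.5 in their stumps, below the median of all reporters in each of the 6 samples.

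The frog members of the cluster were low in every sample. xtr-miR-302, the single frog miR-302, read 6, 14 and 11 in the blastemas and 10, 6 and 15 in the stumps. xtr-miR-367 read 8, 11 and 17 in the blastemas and 4, 3 and 14 in the stumps. Both groups overlapped for both reporters, and no sample stood clear of the others.

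miR-427, the amphibian miRNA of maternal mRNA clearance, was represented by the targets of 2 Xenopus species. xla-miR-427 read 5, 14 and 18 in the blastemas and 10, 11 and 17 in the stumps. xtr-miR-427 read 5, 17 and 14 in the blastemas and 17, 4 and 15 in the stumps. The groups overlapped, and the lowest blastema of both reporters was that of animal 368.

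The zebrafish reporters were equally low. dre-miR-430a read 7, 16 and 10 in the blastemas and 6, 9 and 22 in the stumps. dre-miR-430b read 9, 10 and 8 in the blastemas and 10, 10 and 18 in the stumps. dre-miR-430c read 11, 11 and 12 in the blastemas and 7, 8 and 23 in the stumps. The stump of animal 378 was the highest sample for all 3 zebrafish reporters, and still lay under 32.

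The other 15 reporters, the human, chicken and opossum forms of miR-302a to miR-302d and of miR-367, also stayed below 32. The highest of them was hsa-miR-302b with 27 in the stump of animal 368, followed by hsa-miR-302c with 26 in the blastema of the same animal. The identical chicken targets read 4 for gga-miR-302b and 5 for gga-miR-302c in those samples. Reporters of identical target differed by 1 to 23 within a sample for miR-302b and by 2 to 21 for miR-302c, a gap as wide as nearly the whole range of the members. On the array of animal 368, for which spot values before normalization were deposited, the member reporters lay between -25.3 and 16.6 around the background in the blastema channel and between -3.23 and -0.3 in the stump channel, against a background (the median of all experimental spots) of 324.7 and 45.44.

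Because no member reporter reached 32 in all 3 samples of a group, none entered the comparison of groups on LC Sciences, in which limma called 241 of 500 reporters at an adjusted p under 0.05 (48.2%). No fold change is given, as both groups were below the limit. When every reporter was fitted without the limit and without the floor of 32, a choice made after the signals had been seen, 0 of 22 members were called by limma and 0 had an unadjusted p under 0.05. In that fit 51 of 1974 reporters were called (2.58%) and 269 had an unadjusted p under 0.05, and the lowest unadjusted p of a member was 0.158.

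Reporters with the member seeds were classed by name, and most of the somatic ones, though not all, read 32 or more in every blastema. The other 15 embryonic or placental reporters with a member seed, among them miR-372, miR-373, the miR-520 forms, miR-428, miR-430i, miR-430j and miR-302e, lay between 2 and 25, and all 15 stayed below 32 in every sample. Of the 44 somatic reporters with a member seed, 39 reached 32 in all 3 blastemas and 33 in all 3 stumps, with signals of up to 1701. The 4 somatic reporters that reached 32 in no sample included the 3 reporters of miR-32, named after their values were seen.

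**Figure D1:**
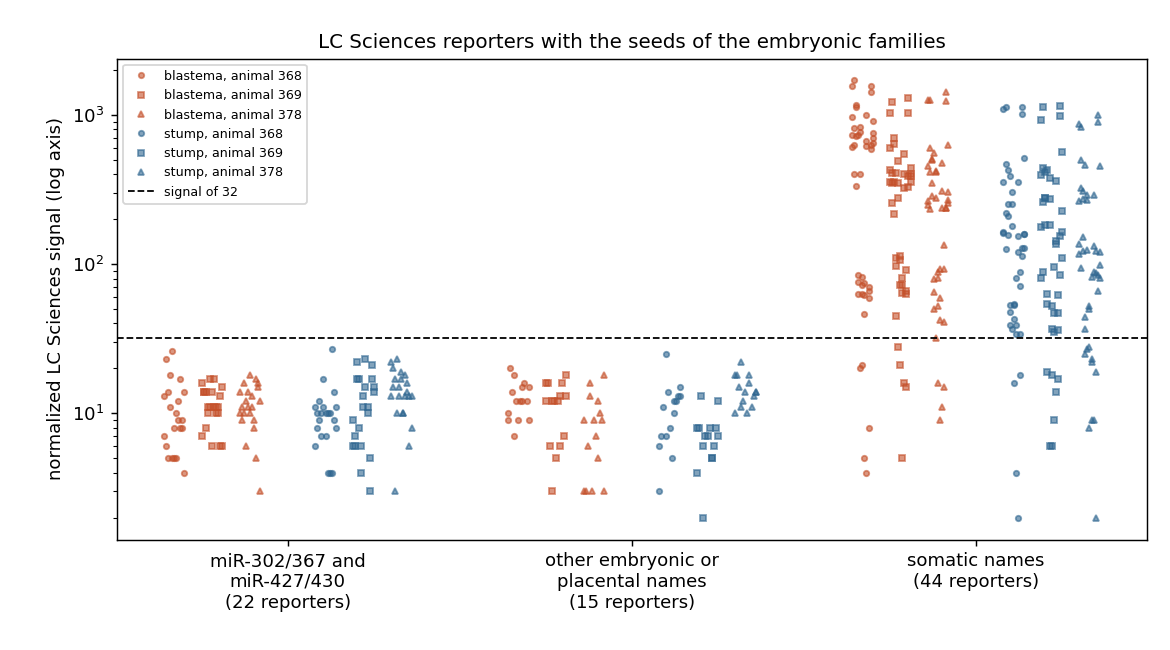
Normalized LC Sciences signal (log axis) of each reporter whose target has a member seed, by class, with a point for each reporter and sample, blastema samples to the left of stump samples and the dashed line at 32. All points of the 22 member reporters and of the 15 other embryonic or placental reporters lie below the line, and those of the 44 somatic reporters reach 1701.

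Some reporters that share a seed with the members, and were chosen for it, gave signal in the same hybridizations. xtr-miR-93a, whose target as deposited has the seed AAGUGCU of miR-302, read 833, 490 and 422 in the blastemas and 305, 272 and 269 in the stumps. That target equalled the target of hsa-miR-93, of seed AAAGUGC, without its first base. mdo-miR-93, the other somatic reporter with the seed AAGUGCU, had the same target as xtr-miR-93a. Which form of miR-93 gave the signal was not tested. hsa-miR-17, with the seed AAAGUGC of xtr-miR-427, read 629, 349 and 234 in the blastemas and 126, 88 and 94 in the stumps. hsa-miR-25, with the seed of miR-367, read 1563, 1032 and 1266 in the blastemas and 1101, 918 and 870 in the stumps. For miR-17 and miR-93a the lowest blastema lay above the highest stump, and for miR-25 the blastema of animal 369 lay below the stump of animal 368.

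Of the somatic names of the miR-17 group, which include xtr-miR-93b without a member seed, 24 of 26 reporters were tested and 21 were called higher in the blastema, with a median log2 difference of 1.42 beside 0.0067 over all 500 tested reporters (25.8% called higher). hsa-miR-17 was higher by 1.87 (SE 0.382, limma adjusted p = 0.00665). Without the pair of animal 369, 0 of 24 were called, with a median of 1.53, and without the pair of animal 368 there were 13. Scaled to the spike-in reporters, which were much brighter in the blastemas, the median of all 605 tested reporters moved to -2.44, with 429 called lower and 2 higher. The median of the miR-17 group moved to -1.37, with 0 called higher and 8 of 23 lower. The direction thus turned while the group stayed above the median of all reporters. Of the somatic names of the miR-367 seed, 16 of 19 reporters were tested and 3 were called higher, all of miR-363, with a median of 0.35. Without the pair of animal 369 or of animal 378, 0 of the 16 were called. After scaling to the spike-in reporters the median was -2.53, near that of all reporters, with 0 called higher and 16 of 16 lower. Of all 605 tested reporters, 429 were then called lower.

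On Exiqon, 9 of the 17 member probes had a Hy3 signal above every negative control probe of the same array on all 3 arrays of at least 1 group, beside 48.1% of all 2021 named probes. In the blastema 8 of 17 passed (45.3% of all probes) and in the stump 7 of 17 (44.7%), with 6 passing in both groups (846 of all 2021). The share of members was thus near that of all probes. The highest of 7 negative control probes read 116.2, 117.1 and 128.0 on the blastema arrays and 123.9, 125.6 and 126.8 on the stump arrays, and the median named probe read 117.6 to 126.7, so that the limit cut through the middle of all probes. The member probes read 97.6 to 201.0 in all, while the array's brightest probe read between 5681 and 22810.

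**Figure D2:**
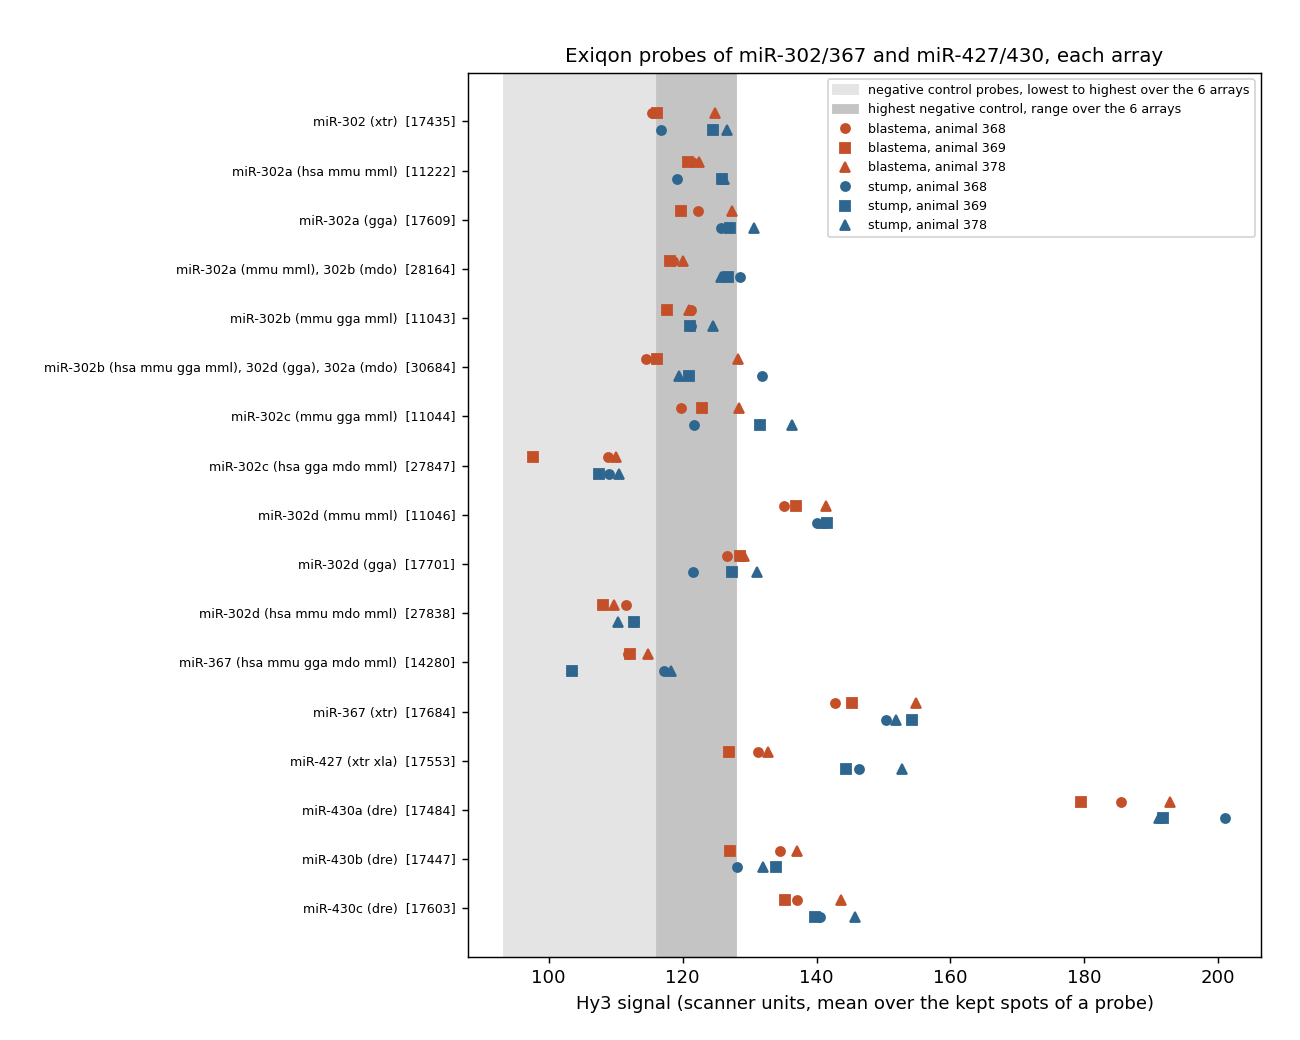
Hy3 signal in scanner units of the 17 member probes (probe number in brackets, species of the entries in parentheses) on each array, with blastema points above stump points and a symbol for each animal. The light band is the range of the negative control probes over the 6 arrays and the dark band the range of the highest of them (116.2 to 128.0). miR-430a lies furthest above the bands, at 179.5 to 201.0. The probes of miR-430c, xtr-miR-367 and mouse miR-302d (11046) also lie above them on every array. Most points of the other miR-302 probes lie within the bands.

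All 4 probes of miR-427 and miR-430 were above the negative controls on all 6 arrays. The miR-430a probe (17484) read 185.4, 179.5 and 192.8 in the blastemas and 201.0, 191.7 and 191.2 in the stumps. The miR-427 probe (17553), which names both frog species, read 131.3, 127.0 and 132.7 in the blastemas and 146.4, 144.4 and 152.7 in the stumps. In Hy3 signal the blastemas of miR-427 were all below its stumps, and those of miR-430a overlapped.

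The other zebrafish members, miR-430b and miR-430c, had a probe each. The miR-430b probe (17447) read 134.5, 127.1 and 137.1 in the blastemas and 128.1, 133.9 and 132.0 in the stumps. The miR-430c probe (17603) read 137.1, 135.3 and 143.6 in the blastemas and 140.5, 139.7 and 145.7 in the stumps. The groups overlapped for both.

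Of the 13 probes of the cluster of miR-302 and miR-367, 2 were above the negative controls on all 6 arrays. The frog probe xtr-miR-367 (17684) read 142.8, 145.3 and 154.8 in the blastemas and 150.4, 154.3 and 151.9 in the stumps. The miR-302d probe of mouse and macaque (11046) read 135.1, 136.9 and 141.4 in the blastemas and 140.0, 141.6 and 141.0 in the stumps. Blastema and stump overlapped for both.

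A further 3 miR-302 probes passed in a single group. The chicken miR-302d probe (17701) read 126.6, 128.6 and 129.1 in the blastemas, above the limit on 3 arrays, and 121.6, 127.4 and 131.1 in the stumps, above it on 2. The miR-302c probe of mouse, chicken and macaque (11044) read 119.8, 122.9 and 128.4 in the blastemas, on 3 arrays above, and 121.7, 131.6 and 136.3 in the stumps, on 2 above. The chicken miR-302a probe (17609) read 122.3, 119.7 and 127.4 in the blastemas, on 2 arrays above, and 125.7, 127.1 and 130.6 in the stumps, on 3 above. For each of the 3 the margin over the limit was small and the groups overlapped in Hy3 signal.

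The remaining 8 probes passed on all 3 arrays of neither group, and 4 of them on no array at all. These 4 were the frog miR-302 (17435), at 115.4, 116.1 and 124.8 in the blastemas and 116.7, 124.6 and 126.7 in the stumps, the shared miR-367 probe of human, mouse, chicken, opossum and macaque (14280), the miR-302c probe with a human entry (27847) and the miR-302d probe with a human entry (27838). The last 3 read 111.8 to 114.8, 97.6 to 110.0 and 108.1 to 111.6 in the blastemas, and 103.5 to 118.2, 107.5 to 110.5 and 110.3 to 112.8 in the stumps.

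The other 4 of these 8 probes passed on some arrays. The miR-302b probe of mouse, chicken and macaque (11043) read 121.2, 117.6 and 120.9 in the blastemas, on 2 arrays above, and 121.3, 121.1 and 124.5 in the stumps, on 0 above. The miR-302a probe of human, mouse and macaque (11222) read 121.4, 120.8 and 122.5 in the blastemas, on 2 above, and 119.1, 125.9 and 126.2 in the stumps, on 1 above. The probe of mouse miR-302a and opossum miR-302b (28164) read 118.5, 118.1 and 120.0 in the blastemas and 128.6, 126.8 and 125.7 in the stumps, on 2 above in each group. Its signals were lower in every blastema than in every stump, whereas the groups of the miR-302a and miR-302b probes overlapped. The probe shared by miR-302b, chicken miR-302d and opossum miR-302a (30684) read 114.6, 116.2 and 128.2 in the blastemas and 131.8, 120.9 and 119.5 in the stumps, on 1 above in each group. Probes for a name thus disagreed: miR-367 was above the controls with the frog probe and on no array with the shared one, and miR-302d was above them with the mouse probe and on no array with the probe that adds human and opossum entries.

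The reference pool gave a second reading. In Hy5, 3 of 17 member probes were above every negative control on all 6 arrays, namely miR-430a (94.15 to 107.5), miR-427 (99.63 to 109.2) and the miR-302b probe that also names chicken miR-302d (30684, at 107.1 to 118.4), and the other 14 on none. The last of these had passed in Hy3 on only 1 array of each group. The limit also depended on the control chosen: with the mean of the negative controls plus 2 SD, 6 of 17 probes passed (5 in the blastema and 5 in the stump). Against the empty spots, which read 65.19 to 70.16 in the median, all 17 passed, as did all 2021 named probes. The empty spots were added as a limit after the signals had been seen. Over the 7 alternative limits and signals that kept every animal, 3 to 17 members passed in at least 1 group, beside 775 to 2021 of all 2021 probes.

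Log2 ratios of Hy3 over Hy5 were then compared between the groups with limma. All 17 member probes were tested, since 2011 of 2021 probes passed the filter on the local background, and 0 of 17 were called at an adjusted p under 0.05, beside 20.1% of the 2011 tested probes (9.15% higher and 10.9% lower in the blastema). At an unadjusted p under 0.05 there were 2 of 17 members, beside 607 of all 2011 tested probes. The methods' t-test called 0 at its own threshold and 0 after Benjamini-Hochberg adjustment. The median log2 difference of the members was 0.06, with 11 above and 6 below 0, beside 0.00023 over all probes, and single differences ranged from -0.31 to 0.37. In these bulk samples fewer cells that hold a miRNA and less of it per cell cannot be told apart.

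The chicken miR-302d probe (17701) had the highest difference among the members. Its log2 ratio was 0.99, 0.80 and 0.77 in the blastemas and 0.13, 0.57 and 0.74 in the stumps, a difference of 0.37 (SE 0.16, 95% interval 0.01 to 0.73), and limma's adjusted p was 0.152. In this ratio, unlike in Hy3 signal, the groups did not overlap, and the stump of animal 368 was the lowest sample. Without that stump array the difference was 0.20 and without the pair of animal 368 it was 0.13 (adjusted p = 0.591). Over all animals or arrays left out it was 0.13 to 0.54, with limma adjusted p of 0.0712 to 0.591. Over the alternative settings that left out no array the adjusted p was 0.0777 to 0.55. The difference was 0.13 without background correction and 0.11 in Hy3 alone. In Hy5 this probe was above the negative controls on no array. It read 76.35, 80.71 and 85.86 there in the blastemas and 90.75, 91.5 and 81.99 in the stumps.

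The lowest difference belonged to the probe of mouse miR-302a and opossum miR-302b (28164), which was above the controls on 2 arrays of each group. Its log2 ratio was 0.19, 0.27 and 0.18 in the blastemas and 0.68, 0.46 and 0.44 in the stumps. The groups did not overlap, and the difference was -0.31 (SE 0.113, 95% interval -0.56 to -0.06, limma adjusted p = 0.0905). It was -0.07 without background correction, -0.09 in Hy3 alone and -0.14 with the loess on spike-in probes, and over all alternatives the adjusted p was 0.0917 to 0.713. These were the only 2 of 17 member probes without overlap, against 35.1% of all 2015 probes with 6 values, and the exact permutation test gave both p = 0.1, the smallest value that 3 against 3 allows (two-sided), with 0.2 to 1 for the other 15. The 3 other probes that name miR-302a had differences of -0.05, 0.06 and -0.02, so that probes for that name gave both signs.

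For miR-427 the log2 ratio was 0.35, 0.08 and -0.11 in the blastemas and 0.23, 0.39 and 0.50 in the stumps. The difference was -0.27 (SE 0.142, 95% interval -0.58 to 0.05, limma adjusted p = 0.257), and the blastema of animal 368 lay between the stumps. Without the pair of animal 368 the difference was -0.46 with an adjusted p of 0.0467, the single call of a member under any alternative; over the other arrays left out it was -0.39 to -0.09, with adjusted p of 0.0831 to 0.784. The arrays of animal 368 had 1584 (blastema) and 1209 (stump) spots marked poor by the scanner software, against 186 to 214 on the others, and at least 2 of 4 spots were kept for each member probe on every array. The part of these marks in the difference was not tested. With the marked spots kept the difference was -0.30 (adjusted p = 0.198).

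The other probes above the controls had differences nearer to 0. The log2 ratio of miR-430a was 1.64, 1.33 and 1.24 in the blastemas and 1.27, 1.34 and 1.23 in the stumps, with a difference of 0.12 (SE 0.128, 95% interval -0.17 to 0.41, adjusted p = 0.607). miR-430b differed by 0.11 (-0.16 to 0.38), miR-430c by 0.06 (-0.22 to 0.34), xtr-miR-367 by 0.02 (-0.23 to 0.28), the mouse miR-302d probe by 0.22 (-0.07 to 0.52), the miR-302c probe by 0.02 (-0.30 to 0.35) and the chicken miR-302a probe by -0.05 (-0.30 to 0.19), each with the 95% interval of limma in parentheses. All of these intervals included 0 and none reached a log2 difference of 1. An offset of 10 was added to both channels before the ratio was taken, which draws the ratios of dim probes towards 0.

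**Figure D3:**
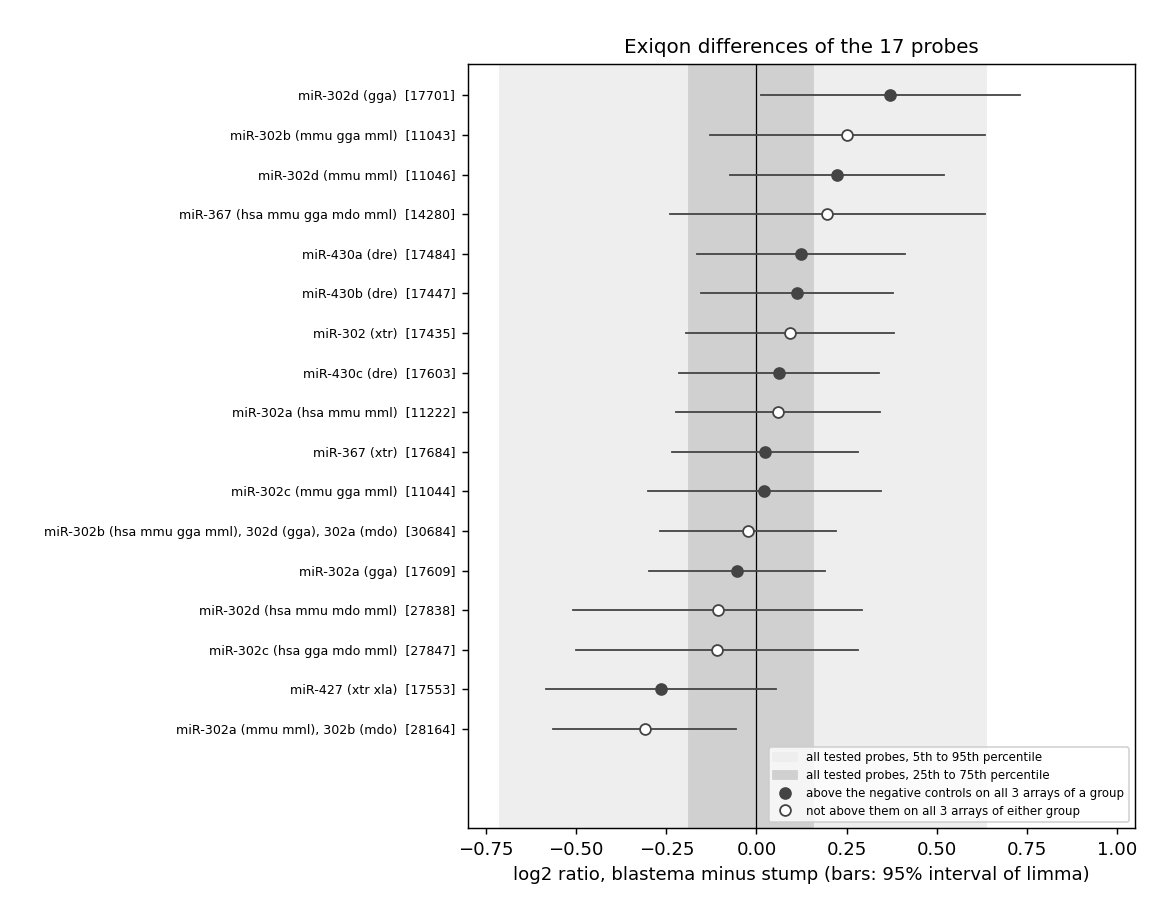
Log2 ratio difference, blastema minus stump, of the 17 Exiqon member probes with the 95% interval of limma (n = 3 arrays a group). Filled points were above the negative controls on all 3 arrays of at least 1 group (9 probes), open points were not (8 probes), and the bands give the 25th to 75th percentile (-0.19 to 0.16) and the 5th to 95th percentile (-0.71 to 0.64) of all tested probes. The members run from -0.31 to 0.37, within the wider band.

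The 5 probes whose log2 ratios over the 6 arrays were most like those of miR-430a, the member with the highest mean Hy3 signal, were miR-187 (Pearson's r = 0.975), miR-580 (0.975), miR-430b (0.974), let-7f-2* (0.968) and gga-miR-449 (0.966), of 2014 probes compared. None of the 5 was called by limma (adjusted p of 0.534 to 0.875). These values describe 6 arrays that share dye, reference pool and normalization.

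The relatives of the members were set beside them on Exiqon, where 48.1% of all probes were above the negative controls in at least 1 group. Of all tested probes 9.15% were called higher and 10.9% lower in the blastema. Of 13 probes for other embryonic or placental names of the shared seed, such as miR-373, the mouse miR-294 and miR-295, miR-428 and miR-430i, 7 were above the negative controls in at least 1 group and 0 were called. Of 14 somatic probes of the miR-17 group, 14 were above the controls, 0 were called higher and 2 lower, both of miR-93 (30687 and 30744, -0.42 and -0.41, limma adjusted p = 0.035 and 0.0302), while the zebrafish miR-93 probe (17715) was not called (-0.09, adjusted p = 0.681). The median difference of the 14 was -0.08, moving to -0.26 with 5 lower under median centring and to -0.55 with 6 lower under the loess on spike-in probes. By name this list also holds a probe mostly of the opposite strand of miR-17 (19588), which was not called. Of 8 somatic probes of the miR-367 seed, 5 were above the controls, 0 were called higher and 1 lower. The called probe was ptr-miR-25 (30807, -0.39, limma adjusted p = 0.0308), while the miR-25 probe with a human entry (11029) was not called (-0.29, adjusted p = 0.119). The miR-17 probe (28736) read 647.1, 739.2 and 797.4 in the blastemas and 1651, 1021 and 1254 in the stumps, in Hy3 signal before normalization. Its log2 ratio differed by -0.08 (limma adjusted p = 0.759), whereas hsa-miR-17 was called higher in the blastema in the main LC Sciences comparison. Not every probe of the group was bright, as the zebrafish miR-93 probe had mean Hy3 signals of 136.2 and 146.3 in blastema and stump.

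**Figure D4:**
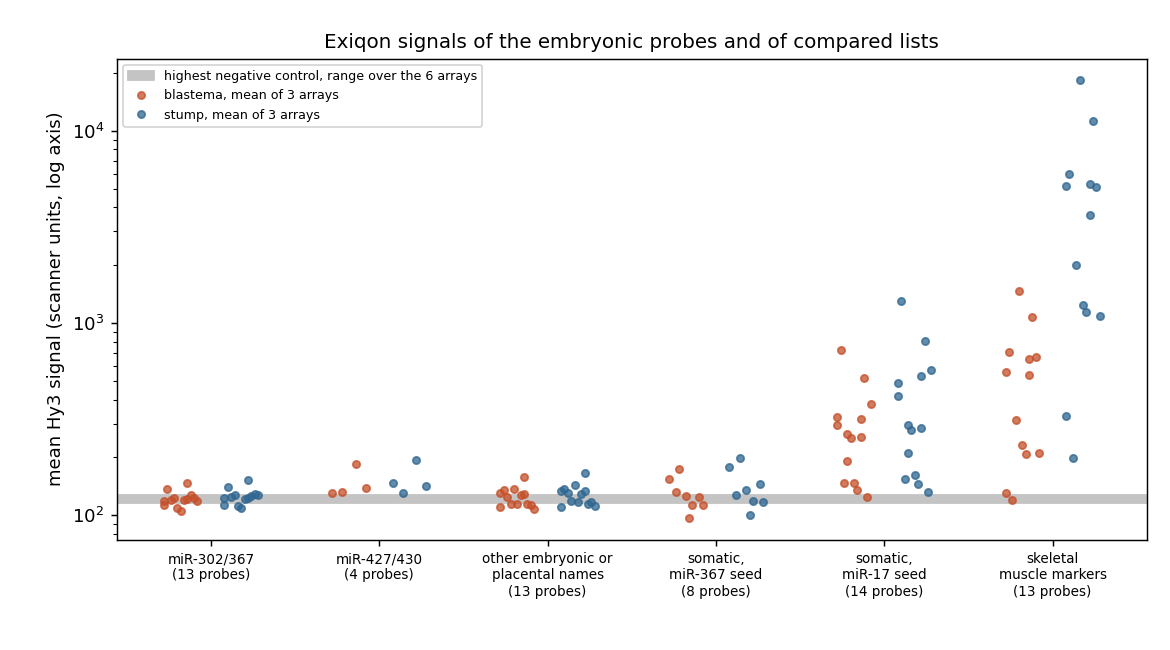
Mean Hy3 signal over 3 arrays (log axis) of each Exiqon probe in 6 lists, blastema to the left of stump, with the band showing the highest negative control (116.2 to 128.0 over the arrays). Most probes of miR-302, miR-367, miR-427, miR-430 and the other embryonic names lie in or near the band. The highest of them are miR-430a, at means of 185.9 and 194.6, and miR-430i, at 158.7 and 166.2. Probes of the somatic miR-367 seed run from miR-92b (97.31 and 100.1) to miR-363 (174.6 and 198.8). Those of the somatic miR-17 group and of skeletal muscle reach far above the band.

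Among 13 probes for the opposite strands and cluster neighbours of the embryonic miRNAs, 9 were above the controls and 2 were called higher in the blastema. Over all probes 48.1% were above the controls in at least 1 group, and 9.15% of those tested were called higher. hsa-miR-371-5p (17950), from the human cluster of miR-371 to miR-373, read 209.5, 239.6 and 287.0 in the blastemas and 275.7, 193.0 and 191.4 in the stumps, with a log2 difference of 0.48 (SE 0.106, limma adjusted p = 0.00983). Its Hy3 signals overlapped between the groups, and the stump of animal 368 was above 2 of the 3 blastemas. mmu-miR-292-3p (11215), from the mouse cluster of miR-290 to miR-295, read 123.6, 119.0 and 128.2 in the blastemas, above the limit on 3 arrays, and 117.9, 118.8 and 123.5 in the stumps, on none (difference 0.56, SE 0.162, limma adjusted p = 0.0348). The call of miR-371-5p was lost with median centring (0.11, adjusted p = 0.75) and with the loess on spike-in probes (0.0017, adjusted p = 0.996), and without the pair of animal 369 or of animal 378 (adjusted p = 0.0715 and 0.111). Over all alternatives its adjusted p was 0.00152 to 0.996. That of miR-292-3p was lost without the pair of animal 368 or 369, without any single array other than the blastema of animal 378, without background correction (0.15, adjusted p = 0.212), with an offset of 50 (0.23, adjusted p = 0.103), in Hy3 alone (0.16, adjusted p = 0.165) and with the methods' t-test after Benjamini-Hochberg adjustment (adjusted p = 0.163). Over all its alternatives the adjusted p was 0.00749 to 0.212. On LC Sciences hsa-miR-371-5p read 26, 16 and 15 in the blastemas and 13, 11 and 9 in the stumps, and all 10 reporters of this list stayed below 32.

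The labelled tissues were checked with marker miRNAs. On Exiqon all 13 skeletal muscle probes (miR-1, miR-133a, miR-133b, miR-206 and miR-499) were called lower in the blastema, with a median log2 difference of -2.51. Also called lower were 6 of 6 cartilage probes (median -1.43), 3 of 3 probes listed for the endothelial miR-126 (-1.05) and 2 of 9 nerve probes. All 9 nerve probes had negative differences, with a median of -0.31. By name these lists also hold a probe mostly of the opposite strand of miR-126 (10930) and a cartilage probe with opposite-strand entries of miR-140 (11201). On LC Sciences 18 of 36 tested muscle reporters were called lower (median -1.87), 7 without animal 369 and 8 without animal 378, as were 2 of 2 cartilage, 4 of 4 endothelial (1 without animal 369) and 5 of 5 nerve reporters (3 without animal 369). The tested cartilage reporters were all of miR-455 and the tested nerve reporters all of miR-128. No reporter of miR-140, miR-124 or miR-9 passed the limit for testing. The myeloid miR-223 was called higher on Exiqon (1.54), but not with median centring (0.74) or the loess on spike-in probes (0.47). On LC Sciences 5 of 5 reporters of miR-223 were called higher, 2 with quantile normalization, 2 with the animal as a block and 0 without animal 368 or 378. The red blood cell miR-451 was called on Exiqon for 0 of 3 probes and on LC Sciences higher for 5 of 6 reporters, 0 without animal 369 or 378. The epidermal miR-203 and miR-205 had 2 of 5 probes called lower on Exiqon, both of miR-203 (median of the 5 -0.41). On LC Sciences the 9 reporters of miR-205 were called higher and the 4 of miR-203 were not called (-0.18 to 0.28). Scaled to the spike-in reporters, the LC Sciences medians turned to -1.07 for the epidermal, -0.99 for the myeloid and -0.79 for the red blood cell reporters, with 0 called higher. All of these stayed above the median of all 605 reporters tested under that scaling (-2.44), of which 2 were called higher. The part of these marker shifts in the members' values was not tested.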

How the data were processed

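Hindlimb stump and blastema samples of 3 axolotls were measured on 6 Exiqon arrays and 3 LC Sciences arrays. The deposited Exiqon scanner files hold spot intensity in Hy3 and Hy5 from ImaGene 8.0.1, with no background correction. The deposited log2 ratios, made by Exiqon with normexp and loess, hold 397 to 459 values per array and none for the members; they correlated with the recomputed ratios at 0.9988 to 0.9997. The deposited LC Sciences values are normalized signals on a linear scale, averaged over a reporter's spots; the sources name both Lowess and a global normalization. Columns with the authors' own comparisons (ratios and test results) were not used.

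Exiqon spots marked poor were left out, signals were corrected with normexp (offset 10) on the local background, normalized by loess within arrays, and averaged over a probe's spots (4 printed). Probes were tested where at least 50% of spots exceeded the local background by 2 SD. Of the probe IDs, 206 carry no name and were left out. LC Sciences reporters were tested where the signal reached 32 in all 3 samples of a group, as log2 values with a floor of 32. Both comparisons used limma 3.58.1 in R 4.3.3 (lmFit and eBayes, blastema minus stump), with Benjamini-Hochberg adjustment over all tested probes and a threshold of 0.05, and the scripts were tested on simulated data. Alternatives covered background correction, normalization, filters, floors, the methods' t-test and each animal or array left out.

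Samples with the same number come from the same animal, so the numbers pair the samples; deviations of same-animal samples correlated at -0.0369 to -0.00756 on Exiqon and -0.0471 to 0.167 on LC Sciences. The main fit had no pairing. The paper calls the samples paired and names a t-test between the groups, without stating whether that test was paired.

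The members and the lists of relatives and markers were chosen with earlier results of these data known. Every member was named, from each list those with the highest signal or a call, LC Sciences relatives for their seed, and the 5 probes most like the brightest member. Exiqon names are those of the array design, and closely related miRNAs may share a probe. Positions in the axolotl genome were not analysed here.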

Additional observations from a re-analysis of the deposited data

How the results depend on the processing

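No member reached 32 in all 3 samples of a group under any LC Sciences alternative except gga-miR-302c after scaling to the spike-in reporters. It read 3.28, 3.37 and 4.93 in the blastemas and 32.8, 41.0 and 39.8 in the stumps. Before scaling it read 5, 14 and 16 in the blastemas and 9, 17 and 17 in the stumps, all under 32. This scaling raised stump signals and lowered blastema signals, and 605 of all reporters were then tested, against 500. hsa-miR-302c, of identical target, did not pass. The fit raised the blastemas of gga-miR-302c to the floor of 32, so that the log2 difference tested was -0.235, which was not called. The gap below the floor was not tested. The other alternatives that kept the filter tested no member and could not call one. With the filter dropped but the floor of 32 kept, every member stood at that floor. Only the fit without filter and floor compared all members, and it called none. On Exiqon 0 to 1 members were called with an animal or array left out, the 1 being miR-427, and 0 under the other alternatives. With the animal as a block for the pairing, 0 of 17 members were called on Exiqon (341 of all probes), so that the pairing changed no call of a member there. On LC Sciences no member entered that fit, in which 231 of all reporters were called.

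The number of member probes above the control limit depended on the limit. In the blastema it was 5 with the mean plus 2 SD. It was 3 in either group, 3 in the blastema and 3 in the stump in Hy5, and 17, 17 and 17 against the empty spots, an alternative chosen after seeing the data (2021, 2017 and 2019 of all probes). With an animal left out it was 9 to 12 in either group, 8 to 12 in the blastema and 7 to 9 in the stump. Of all 2021 probes, 987 to 1042, 921 to 994 and 921 to 940 then passed.

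Small differences changed sign. The miR-302c probe (11044) was at -0.0229 without background correction, -0.0115 with an offset of 50 and -0.0560 in Hy3 alone. The chicken miR-302a probe was at 0.0869 with median centring and 0.15 with the loess on spike-in probes, miR-430a at -0.0020 with that loess, and xtr-miR-367 at -0.0526 with marked spots kept. With an animal or array left out, these ran from -0.10 to 0.14 (miR-302c), -0.12 to 0.0170 (chicken miR-302a), -0.0594 to 0.0913 (xtr-miR-367) and -0.0209 to 0.13 (miR-430c). The causes were not tested. The median of the members was 0.20 with the loess on spike-in probes, with all probes at 0.08.

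Scaling to the spike-in reporters turned the LC Sciences medians to -1.37 for the somatic miR-17 group and to -2.53 for the somatic miR-367 seed, beside -2.44 over all tested reporters. Counts over all probes moved on Exiqon, 404 in the main comparison, to 253 with the loess on spike-in probes, 262 and 185 without animals 369 and 378, 317 with the methods' t-test after Benjamini-Hochberg adjustment and 87 with it at its own unadjusted threshold. On LC Sciences, 241 became 79 without the filter, 431 with spike-in scaling, 105 without animal 369, 177 with the methods' t-test after Benjamini-Hochberg adjustment, 143 with it at its own unadjusted threshold and 51 without filter and floor. The deposited log2 ratios hold no member and gave no alternative value.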
